A study of Brassica oleracea with 12 samples.

Results

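The green margin of leaves at the variegated leaf stage (S3_S) was compared with leaves at the green leaf stage (S1) in the ornamental kale line 'JC007-2B' (*Brassica oleracea* var. *acephala*). Both tissues are green, so the comparison addresses which genes differ between the stages in leaf tissue that has not turned white. The 3 S3_S and the 3 S1 libraries of the 12 in the series were used, with every gene above 0 FPKM in at least 1 of these 6 libraries, which were 42391 of the 45325 genes of the deposited table.

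'JC007-2B' is a double-haploid line that was derived from microspores of 'Osaka red', and libraries of each group came from this single line. S3_S was taken from the margin of leaves that have a white center, on plants that had been through a period of chilling. S1 was taken from entirely green leaves, with the veins removed, before the white color appeared. Whether veins were also removed from S3_S is not given in the sources used here, and stage, chilling and leaf region cannot be told apart. The white center of the variegated leaves (S3_C, 3 libraries) is given beside some of the results. The S3 samples were described as independent biological replicates and nothing equivalent was stated for S1, so the p-values measure the spread between these libraries.

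A leaf grows first by cell division and then by expansion. Dividing cells copy their DNA with the help of the MCM helicase and the sliding clamp PCNA, and growing cells need many ribosomes. Mature leaf cells invest in photosynthesis, in storage and transport of sugars and in responses to wounding, pathogens and hormones. In *Arabidopsis*, a close relative of kale, low temperature and strong light also raise flavonoids, which are pigments and sunscreens made from phenylalanine through chalcone.

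The values are FPKM, fragments scaled by transcript length and by the total of each library. Sums per library were 429278 to 444398 FPKM in S3_S and 447579 to 461587 FPKM in S1, and 35020 to 35477 genes were above 0 in S3_S, against 33912 to 35158 in S1. Sequencing depth relative to the first S1 library, read from the smallest steps of low values, was 0.902 to 1.2 in S3_S and 1.0 to 1.31 in S1. The first library of each group stood apart from the other two. The correlation of log2(FPKM + 1) across genes was 0.917 between the first S3_S and the first S1 library, and 0.786 to 0.813 between libraries 2 and 3 of S3_S and libraries 2 and 3 of S1. Within the groups the first library correlated with the others at 0.936 to 0.939 in S3_S and 0.923 to 0.926 in S1. The fold changes below are differences of log2(FPKM + 1), which understate the change of low genes. They are given ± SE from limma, and each result was also computed without each library.

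A gene was called when its Benjamini-Hochberg adjusted p from limma was under 0.05 and its log2 fold change was over 1 in size. In all, 4904 genes were called, 3473 higher and 1431 lower in S3_S, which is 8.19% and 3.38% of the 42391 genes tested. Of the 23893 genes that averaged at least 1 FPKM over the 6 libraries (expressed genes below), 13.8% were called higher and 5.70% lower. The libraries of both groups did not overlap in 10959 genes with S3_S above and 5592 with S3_S below (25.9% and 13.2% of genes tested), and in 52.1% of expressed genes, so that a gap between the groups is by itself common. The excess of higher calls depended on scaling. Expressed genes had a median log2 fold change of 0.29 as deposited and of 0.03 after median-of-ratios scaling. Scaling left 2257 of all genes tested higher and 2270 lower. Among expressed genes 2159 were then higher and 2154 lower (9.04% and 9.02%). Both treatments called 3684 genes in the same direction and 0 in opposite directions. Of the 1431 genes called lower as deposited, 1428 were also called lower after scaling, and of the 3473 called higher, 2256 were also called higher.

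The number of calls also rested on single libraries. Without the second or the third library of S3_S, or the second or the third of S1, limma called 0 genes after adjustment, with 6096 to 6687 genes past an unadjusted p under 0.05 and the fold limit. The smallest adjusted p was then 0.0560 to 0.0916. Without the first S3_S library 6005 genes were called, without the first S1 library 6396, and without both 8504. With all 6 libraries, 8136 genes passed the unadjusted rule, 21.0% of expressed genes upwards and 11.4% downwards. For this reason most counts of list members below are also given under the unadjusted rule, as the range over the 6 fits that each leave out 1 library (leave-one-out range).

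**Figure D1:**
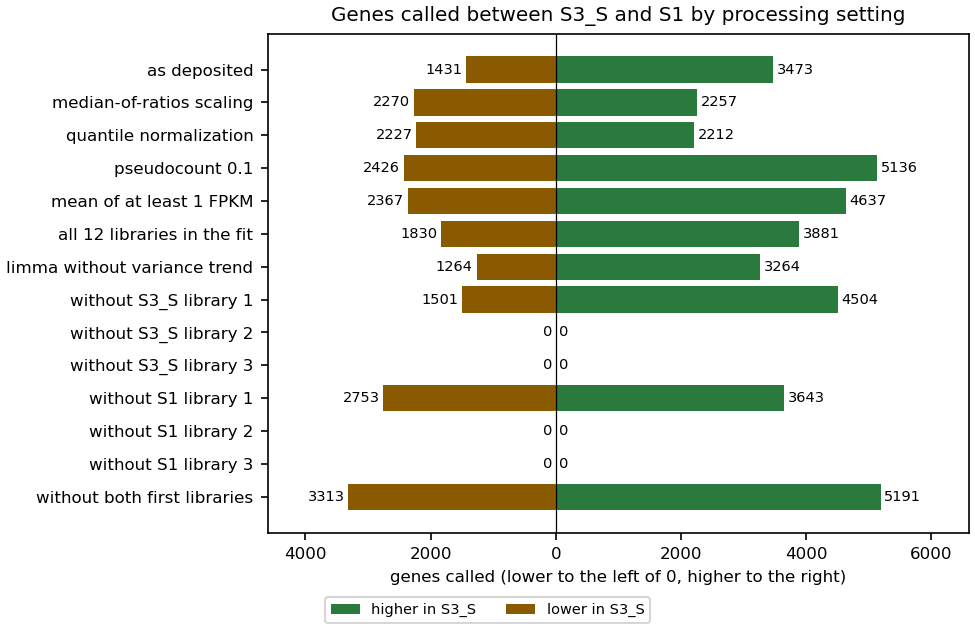
Number of genes called between S3_S and S1 (horizontal axis, higher in S3_S to the right of 0 and lower to the left) under each processing setting. The calls were 3473 higher and 1431 lower as deposited, about even after both scalings, and 0 in the 4 fits that leave out library 2 or 3 of either group.

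Genes of DNA replication and cell division that were called were nearly all lower in S3_S. Of 49 tested genes of the KEGG DNA replication pathway (50 in the table), 20 were lower and 0 higher, with a median log2 fold change of −0.73. The share called lower was 40.8%, beside 3.38% of all genes tested. Under the unadjusted rule 17 to 24 of the 49 were lower in the fits without 1 library, and 21 were called lower after scaling. Summed over the pathway, the FPKM were 185, 167 and 163 in S3_S, against 252, 594 and 469.7 in S1. The groups did not overlap, and the first S1 library lay nearest to S3_S.

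*RPA2*, a subunit of the protein that coats single-stranded DNA, had 3.79, 0.585 and 0.573 FPKM in S3_S, against 17.1, 67.0 and 50.1 FPKM in S1. Its log2 fold change was −4.12 ± 0.65 (adjusted p = 0.0229, limma). *PCNA1*, the sliding clamp, had 1.87, 0.377 and 0.388 FPKM in S3_S, against 5.0, 32.4 and 25.3 FPKM in S1 (−3.30 ± 0.70, adjusted p = 0.0348, limma). In both genes the first S3_S library was the highest of its group and the first S1 library the lowest of its group, yet the groups did not overlap. The fold change of *PCNA1* was −4.07 to −2.83 with 1 library left out. The MCM helicase subunits moved alike: *Bo7g075190*, annotated as *MCM3*, was at −3.78 ± 0.58 (adjusted p = 0.0226, limma), *Bo3g052800*, annotated as *MCM7*, at −3.32 ± 0.53 and *MCM4* at −3.21 ± 0.60. Their highest S3_S value was 2.36 FPKM and their lowest S1 value was 5.62 FPKM.

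The list of cell division and leaf growth genes, with 10 of its 16 genes found, had 5 lower and 0 higher (leave-one-out range 5 to 7 lower). The share called lower was 50%, beside 3.38% of all genes tested. *CDC2B* (*CDKB1;1*), a kinase that drives entry into mitosis, had 1.25, 0.119 and 0.366 FPKM in S3_S, against 4.11, 24.5 and 17.0 FPKM in S1 (−3.14 ± 0.64, adjusted p = 0.0323, limma). *CDKB2* fell by 3.28 ± 0.58 on the log2 scale (adjusted p = 0.0258, limma), *Bo3g003710* (*CYCB1;2*), a mitotic cyclin, by 2.80 ± 0.62, and *TOPII*, which untangles sister chromosomes, by 2.80 ± 0.60. *CYC1* (*CYCB1;1*) had 27.2, 16.6 and 18.8 FPKM in S3_S, against 35.0, 41.6 and 42.1 FPKM in S1. Its groups did not overlap, but its log2 fold change of −0.92 was under the fold limit (adjusted p = 0.0461, limma), and it was called only after scaling. Among genes of microtubule-based movement, mostly kinesin motors, 17 of 93 were lower and 0 higher (median −0.39, 23 lower after scaling, leave-one-out range 22 to 32 lower). The share called lower was 18.3%, beside 3.38% of all genes tested. The kinesin-type gene *Bo4g165530* had 1.28, 0.132 and 0.235 FPKM in S3_S, against 3.59, 19.0 and 18.6 FPKM in S1.

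**Figure D2:**
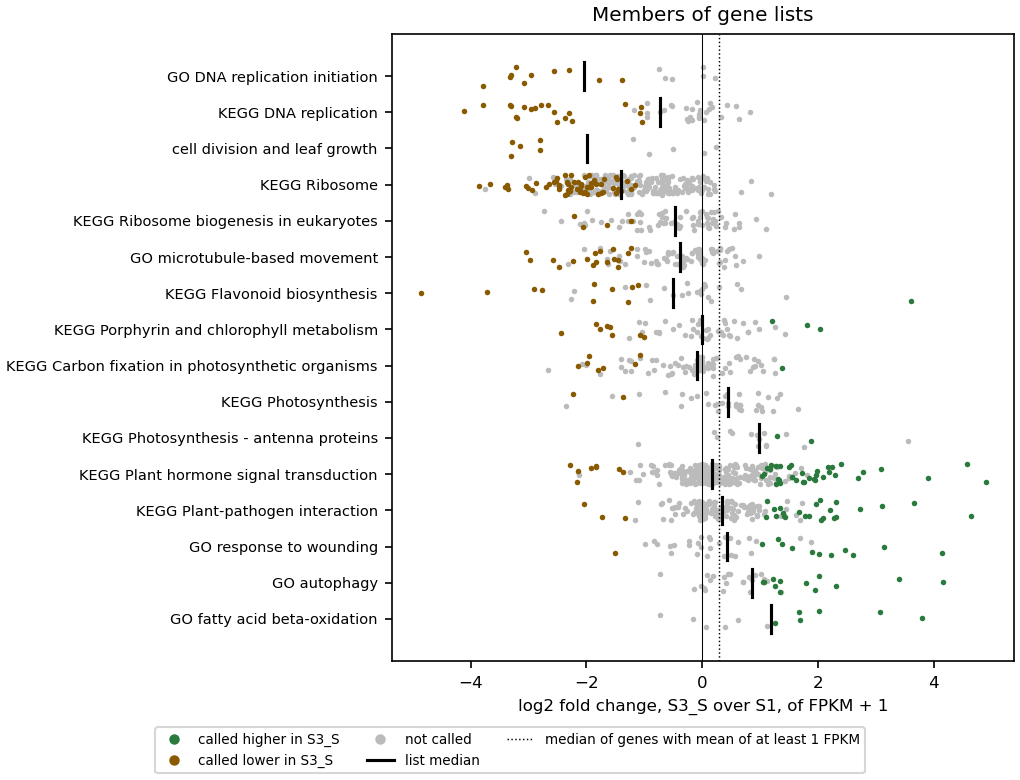
Log2 fold change, S3_S over S1, of the tested members of 16 gene lists (1 point per gene, colored by call), with the median of each list as a black bar and the median of expressed genes, 0.29, as a dotted line. Replication, cell division and ribosome lists lie to the left, with medians of −2.04 to −0.73 for replication and −1.41 for the ribosome, and the lists of DNA replication initiation, autophagy and fatty acid beta-oxidation were chosen after values were seen.

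Ribosomal protein genes had negative fold changes almost throughout. Of 275 tested members of the KEGG Ribosome pathway (277 in the table), 260 had a negative log2 fold change, 59 were called lower and 0 higher, with a median of −1.41 and a range of −3.86 to 1.18. The share called lower was 21.5%, beside 3.38% of all genes tested. After scaling 83 of the members were called lower, and without the intensity trend in limma 43. The unadjusted rule gave 159 of the 275 lower, and 81 to 198 with 1 library left out, the highest being without the first S1 library. With all 6 libraries that rule gave 2848 of the 42391 genes tested lower, and 11.4% of expressed genes. The sums over the pathway were 14207, 9694 and 10747 FPKM in S3_S, against 18250.5, 39455 and 47158 FPKM in S1. Libraries 2 and 3 of S1 thus stood far above the rest, while the first S1 library lay close to S3_S.

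*Bo9g008690*, of the L34e family of the large subunit, had 12.9, 3.21 and 4.49 FPKM in S3_S, against 33.3, 136 and 207 FPKM in S1 (−3.86 ± 0.77, adjusted p = 0.0309, limma). *Bo3g004180*, protein S4 of the small subunit, had 16.3, 3.81 and 3.80 FPKM in S3_S, against 37.4, 106 and 116 FPKM in S1 (−3.41 ± 0.66, adjusted p = 0.0292, limma). In both, the groups were fully separated, again with the first libraries nearest to each other. A more abundant member, *Bo6g071080* (protein S26), had 183, 111 and 139 FPKM in S3_S, against 212, 993 and 869.6 FPKM in S1, and it did not pass the test (−2.0 ± 0.72, adjusted p = 0.106, limma). Of 78 tested genes of ribosome biogenesis, 4 were called lower and 0 higher (median −0.47). The share called lower was 5.13%, beside 3.38% of all genes tested. Of 73 expressed members 4 were lower, near the 5.70% of expressed genes. The count is not read as a result about the list. The unadjusted rule gave 21 lower, 31 without the first S1 library and 4 to 14 without any other library. Among the genes called was *Bo9g035280*, annotated as the nucleolar protein IMP4 (−1.64 ± 0.38, adjusted p = 0.0408, limma). Ribosomal proteins and histones are encoded by several near-identical copies in *Brassica*, and reads with up to 20 alignments were kept, so the share of each copy is uncertain.

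In the white center, 45 of 272 tested genes of the Ribosome pathway were lower in S3_C than in S1 and 0 higher, where the background was 15.5% higher and 2.94% lower among 43007 genes tested. These calls share the S1 libraries with those of S3_S. Directly between S3_S and S3_C, 0 of 271 tested Ribosome genes were called by limma, with 3 higher and 7 lower in S3_S under the unadjusted rule, and a median log2 fold change of −0.31. This comparison called 1.21% of genes higher and 1.39% lower in S3_S among the 42625 genes tested.

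**Figure D3:**
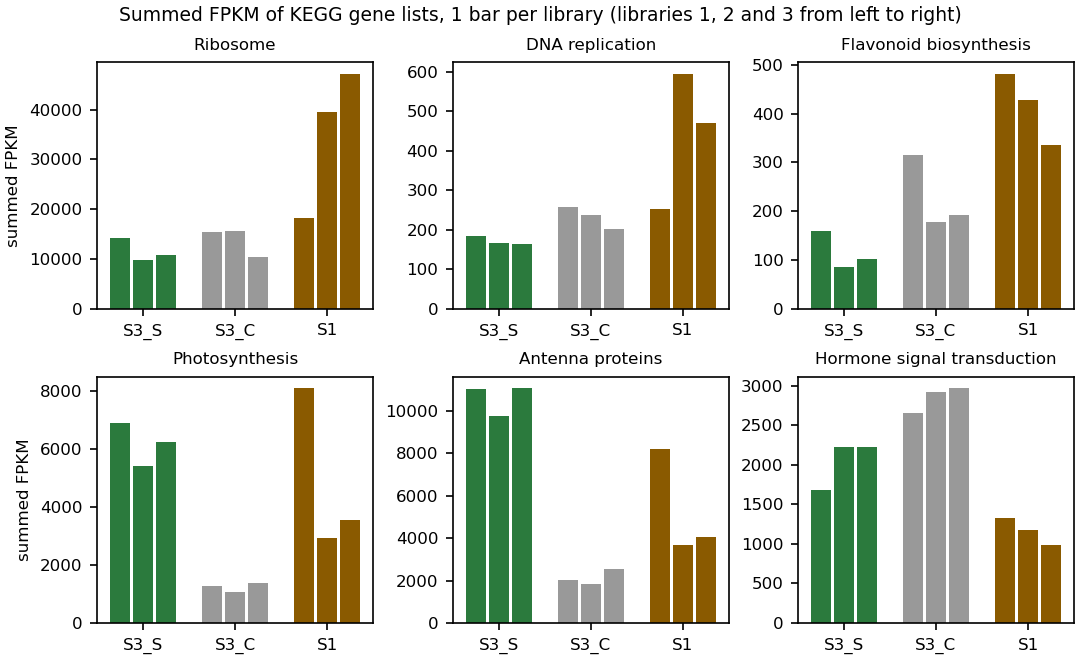
Summed FPKM of 6 KEGG gene lists (vertical axis, linear from 0) in each library of S3_S, S3_C and S1, with 1 bar per library. Ribosome and DNA replication sums were highest in libraries 2 and 3 of S1, photosynthesis and antenna sums were lowest in S3_C, and antenna sums were 9769.9 to 11080.1 in S3_S, against 3674 to 8215 in S1.

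Flavonoid genes that were called were lower in S3_S with a single exception. Of 33 tested genes of the KEGG flavonoid pathway (35 in the table), 10 were lower and 1 higher, with a median of −0.51. That is 30.3% and 3.03%, beside 3.38% lower and 8.19% higher of all genes tested. The same counts of 10 and 1 were obtained after scaling, and 9 to 14 were lower under the unadjusted rule with 1 library left out. In S3_C, 3 of 33 tested members were higher and 3 lower than in the same S1 libraries (median −0.05). Of all genes, 15.5% were higher and 2.94% lower in S3_C. Directly, 2 of 31 were lower in S3_S than in S3_C and 0 higher, where 1.39% of all genes were lower. *FLS1*, flavonol synthase, had 2.34, 1.11 and 0.568 FPKM in S3_S, against 61.4, 68.7 and 62.1 FPKM in S1. The S1 libraries were nearly equal and far above the S3_S libraries. Its log2 fold change was −4.87 ± 0.29 (adjusted p = 0.0146, limma) and −5.16 to −4.61 with 1 library left out.

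*MYB111*, a regulator of flavonol synthesis in *Arabidopsis*, had 0.397, 0.202 and 0.149 FPKM in S3_S, against 2.49, 1.92 and 2.75 FPKM in S1 (−1.44 ± 0.22, adjusted p = 0.0224, limma). *Bo8g088480*, a chalcone isomerase family gene, had 4.67, 1.11 and 2.11 FPKM in S3_S, against 26.4, 60.7 and 49.8 FPKM in S1 (−3.73 ± 0.46, adjusted p = 0.0198, limma). *4CL3*, which supplies coumaroyl-CoA to the pathway, had 3.84, 0.733 and 0.117 FPKM in S3_S, against 16.9, 23.0 and 24.6 FPKM in S1 (−3.40 ± 0.54, adjusted p = 0.0231, limma). All 3 genes were separated between the groups. *Bo8g081770*, annotated as flavanone 3-hydroxylase, was less even, with 33.9, 4.35 and 4.92 FPKM in S3_S, against 77.9, 81.3 and 71.5 FPKM in S1, and its call was lost without the intensity trend (adjusted p = 0.0466 with it and 0.0627 without it, limma). *TT7*, which hydroxylates the flavonoid B ring, shares a locus with *Bo9g174900* in the table. It had 17.6, 0.176 and 0 FPKM in S3_S, against 31.4, 29.2 and 16.0 FPKM in S1, and did not pass the test (adjusted p = 0.103, limma).

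The one flavonoid pathway member that rose, *Bo2g056370*, is annotated as a caffeoyl-CoA O-methyltransferase, an enzyme shared with lignin synthesis. It had 6.03, 22.3 and 22.4 FPKM in S3_S, against 0.869, 0.0765 and 0.0464 FPKM in S1 (3.61 ± 0.55, adjusted p = 0.0222, limma). In the wider phenylpropanoid pathway, 22 of 157 tested genes were lower and 5 higher (median −0.07, leave-one-out range 25 to 35 lower and 5 to 13 higher). That is 14.0% and 3.18%, beside 3.38% lower and 8.19% higher of all genes tested. *ATCAD9*, a cinnamyl alcohol dehydrogenase, had 38.2, 18.8 and 15.7 FPKM in S3_S, against 112, 222 and 155 FPKM in S1 (−2.74 ± 0.42, adjusted p = 0.0222, limma).

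Markers of vein tissue had lower summed levels in S3_S, although S1 was sampled without veins. Of 16 such genes 5 were found, and their summed levels were 5.46, 2.50 and 5.33 FPKM in S3_S, with 19.1, 18.3 and 12.5 in S3_C and 14.3, 13.0 and 8.74 FPKM in S1. Directly, 2 of the 5 were lower in S3_S than in S3_C, where 1.39% of all genes were lower. Over S1, all 5 fold changes of S3_S were negative and none of the genes was at 0 in any library. *XCP1*, a xylem peptidase, was called (2.2, 0.847 and 0.971 FPKM in S3_S, against 7.50, 5.58 and 3.87 FPKM in S1, adjusted p = 0.0389, limma). *CESA4* and *CESA8*, which make the cellulose of secondary walls, were at −0.89 and −0.95 and were called only after scaling. The part of vein tissue in the phenylpropanoid and cell wall results was not tested, and in bulk tissue fewer cells of a type cannot be told apart from less RNA per cell. Of 3 stomatal lineage genes and 5 leaf polarity genes found, limma called 0, and 1 polarity gene, *PHV*, passed the unadjusted rule (−1.08, adjusted p = 0.0716, limma).

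**Figure D4:**
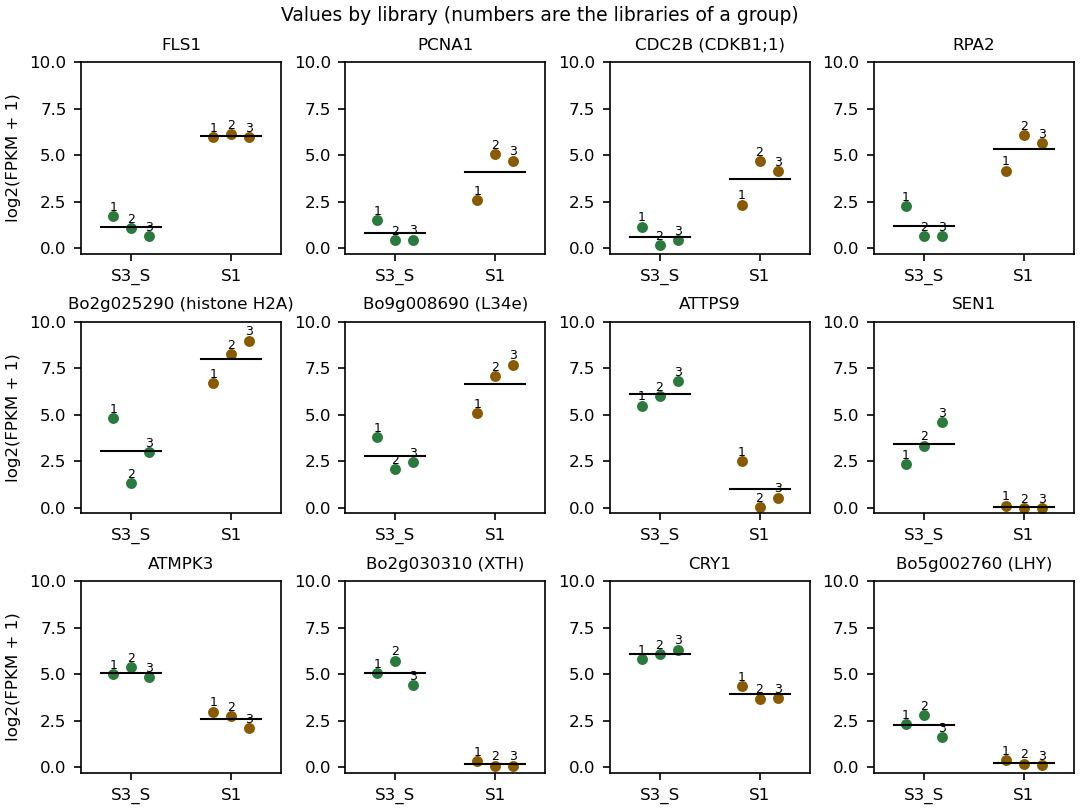
Values of 12 genes on log2(FPKM + 1) in the libraries of S3_S (left) and S1 (right), with the number of each library beside its point and the group mean as a line. The groups do not overlap in any of the 12 genes, as in 52.1% of expressed genes, and in *PCNA1*, *CDC2B*, *RPA2* and *Bo9g008690* the first libraries lie nearest to each other.

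Few photosynthesis genes were called, and their number depended on the first S1 library. Of 37 genes of the KEGG Photosynthesis pathway, limma called 0 higher and 2 lower, against 2 and 2 under the unadjusted rule (median 0.45, and 0.12 after scaling). The share called lower was 5.41%, beside 3.38% of all genes tested. Of 34 expressed members 2 were lower, near the 5.70% of expressed genes. Under the unadjusted rule 11 of the 37 were higher and 2 lower without the first S1 library, and 10 and 2 without the first libraries of both groups. Without any other library 0 to 1 were higher and 2 to 4 lower. The pathway summed to 6919.7, 5409 and 6257 FPKM in S3_S, 1293, 1082 and 1377 in S3_C and 8105, 2949.9 and 3544 FPKM in S1. S3_S thus lay within the range of S1. The genes called lower were *RFNR1*, the ferredoxin reductase of non-green plastids, with 5.06, 8.06 and 4.35 FPKM in S3_S, against 25.5, 16.9 and 63.8 FPKM in S1 (−2.24 ± 0.50, adjusted p = 0.0376, limma), and *PSB28*, a protein of photosystem II assembly (−1.36 ± 0.24, adjusted p = 0.0256, limma). Neither encodes a subunit of the mature photosystems.

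Genes of antenna proteins, which bind chlorophyll and harvest light, mostly had positive fold changes. Of 17 genes, 16 had a positive fold change (median 0.98, and 0.65 after scaling), 2 were called higher and 0 lower, and 0 were called in either direction after scaling. The share called higher was 11.8%, beside 8.19% of all genes tested. Of 16 expressed members 2 were called higher, near the 13.8% of expressed genes. The count is not read as a result about the list. The unadjusted rule gave 3 higher, and 2 to 8 with 1 library left out, the highest being without the first S1 library. The genes called were *Bo9g008350*, with 132, 90.8 and 48.8 FPKM in S3_S, against 33.6, 14.0 and 22.6 FPKM in S1 (1.88 ± 0.46, adjusted p = 0.0458, limma), and *LHCB5*, whose locus is joined in the table with the sodium transporter gene *Bo3g044660* (1.28 ± 0.29, adjusted p = 0.0395, limma). The call of *Bo9g008350* was also lost without the intensity trend. *LHCB4.1*, a minor antenna protein of photosystem II, had 1257, 1304 and 1261 FPKM in S3_S, against 745, 550.0 and 507 FPKM in S1. *Bo4g101180*, an antenna protein of photosystem I, had 1783, 1847 and 2286 FPKM in S3_S, against 1042, 396 and 469 FPKM in S1. The groups did not overlap in either gene.

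For such abundant genes the test depended on the variance model. Among the 48 genes with a mean log2 level of 9 to 11, the trend of limma assumed a median SD of 1.91, against a median SD of 0.648 measured between their libraries. With the trend, *LHCB4.1* (1.1 ± 1.01, adjusted p = 0.470, limma) and *Bo4g101180* (1.76 ± 1.25, adjusted p = 0.368, limma) were not called. Without it, they were (adjusted p = 0.0228 and 0.0454, limma). *LHCA4* was not called in either fit, with 2078, 1791 and 1872 FPKM in S3_S, against 1819.7, 762 and 868 FPKM in S1. The most abundant gene, *Bo4g137200*, encoding the small subunit of Rubisco, had 8429, 4247 and 4837 FPKM in S3_S, against 11157, 5552 and 5186 FPKM in S1, overlapping ranges that passed in neither fit.

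The white center differed from the green margin in these pathways. Directly between S3_S and S3_C, 23 of 36 tested Photosynthesis genes and 7 of 17 antenna genes were higher in S3_S and 0 lower, where 1.21% of all genes were higher. *Bo5g155090*, the chloroplast beta carbonic anhydrase, had 2022, 343 and 1293 FPKM in S3_S and 3652, 172 and 602 FPKM in S1, whereas S3_C had 0.497, 0.447 and 0.649 FPKM. S3_S exceeded S3_C by 9.30 on the log2 scale (adjusted p = 0.0127, limma), whereas S3_S and S1 overlapped (0.41 ± 1.54, adjusted p = 0.862, limma).

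In porphyrin and chlorophyll metabolism lower calls outnumbered higher ones. Of 52 genes, 3 were higher and 8 lower (1 and 11 after scaling), which is 5.77% and 15.4%, beside 8.19% and 3.38% of all genes tested. The leave-one-out ranges were 3 to 9 higher and 7 to 13 lower. *Bo9g017760*, annotated as glutamate-1-semialdehyde aminotransferase, had 23.9, 12.3 and 14.6 FPKM in S3_S, against 55.7, 54.2 and 63.8 FPKM in S1 (−1.76 ± 0.27, adjusted p = 0.0222, limma). *Bo9g174550*, *Bo3g004810* and *Bo2g008970*, annotated as hydroxymethylbilane synthase, fell by 2.43, 1.84 and 1.64 on the log2 scale. These enzymes act early in the pathway, before chlorophyll and heme diverge. *Bo7g104680*, annotated as a pheophorbidase, which acts on a chlorophyll breakdown product, had 3.35, 6.42 and 5.22 FPKM in S3_S, against 0.757, 0.248 and 0.342 FPKM in S1 (2.03 ± 0.31, adjusted p = 0.0226, limma). Carbon fixation had 7 genes lower and 1 higher of 81 (leave-one-out ranges 8 to 15 and 1 to 13, with 13 higher without the first S1 library). That is 8.64% and 1.23%, beside 3.38% lower and 8.19% higher of all genes tested. The list summed to 21688, 12844 and 14472 FPKM in S3_S, against 30823.5, 13221 and 14683 FPKM in S1, which overlap. Called lower was the malate dehydrogenase *Bo6g031300* (41.2, 21.5 and 17.3 FPKM in S3_S, against 103, 123 and 117 FPKM in S1). The gene called higher was the aspartate aminotransferase *Bo9g028670* (87.4, 112 and 71.5 FPKM in S3_S, against 42.6, 31.7 and 27.5 FPKM in S1).

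Of 134 tested genes of starch and sucrose metabolism, 8 were higher and 15 lower, and of 142 of glycolysis 6 were higher and 19 lower (5 and 26 after scaling). The shares were 5.97% higher and 11.2% lower in starch and sucrose metabolism and 4.23% higher and 13.4% lower in glycolysis, beside 8.19% and 3.38% of all genes tested. Of 92 expressed members of starch and sucrose metabolism 7 were higher and 15 lower. Of 122 expressed members of glycolysis 6 were higher and 19 lower, beside 13.8% and 5.70% of expressed genes. Leave-one-out ranges were 9 to 18 higher and 15 to 25 lower for starch and sucrose, and 7 to 16 higher and 22 to 32 lower for glycolysis. The largest rise among the genes called was that of *ATTPS9*, of the class II trehalose phosphate synthase family, which is tied to sugar signaling in *Arabidopsis*. It had 43.9, 62.6 and 112 FPKM in S3_S, against 4.63, 0.0372 and 0.465 FPKM in S1 (5.07 ± 0.69, adjusted p = 0.0206, limma), and the change was 4.58 to 5.80 with 1 library left out. *ATTPS11* and *ATTPS8* of the same family rose by 2.71 ± 0.40 and 2.54 ± 0.46. *Bo5g086820*, annotated as granule-bound starch synthase, which makes amylose, had 158, 143 and 142 FPKM in S3_S, against 48.1, 35.4 and 19.7 FPKM in S1 (2.15 ± 0.35, adjusted p = 0.0233, limma). The S3_S libraries were nearly equal in this gene.

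In galactose metabolism 6 of 52 tested genes were higher and 3 lower (leave-one-out ranges 7 to 12 and 2 to 5). That is 11.5% and 5.77%, beside 8.19% and 3.38% of all genes tested. Of 37 expressed members 5 were higher and 3 lower, near the 13.8% and 5.70% of expressed genes. These counts are not read as a result about the list. *AtSIP2*, of the raffinose synthase family, had 105, 343 and 419.7 FPKM in S3_S, against 24.0, 12.2 and 11.7 FPKM in S1 (3.95 ± 0.59, adjusted p = 0.0221, limma). *Bo8g065000*, a UDP-glucose 4-epimerase, had 78.0, 137 and 136 FPKM in S3_S, against 18.1, 12.5 and 13.3 FPKM in S1 (2.89 ± 0.29, adjusted p = 0.0176, limma). The beta-glucosidase *Bo7g031500*, a member of the starch and sucrose list and not of the galactose list, was by contrast called lower. It had 6.28, 1.02 and 1.08 FPKM in S3_S, against 42.7, 35.3 and 23.5 FPKM in S1 (−3.44 ± 0.55, adjusted p = 0.0231, limma). The 3 members of the galactose list that were called lower had smaller falls than this gene.

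The list of senescence and chlorophyll breakdown genes, with 10 of 31 found, showed no common direction, with 1 higher and 1 lower and a median of 0.09. *SEN1*, also known as *DIN1*, is induced by darkness and senescence in *Arabidopsis*. It had 4.05, 9.18 and 23.5 FPKM in S3_S, with 0.308, 0.203 and 0.371 in S3_C and 0.0870, 0 and 0 FPKM in S1. S3_S exceeded S1 by 3.39 ± 0.57 (adjusted p = 0.0245, limma) and S3_C by 3.06 (adjusted p = 0.0487, limma) on the log2 scale. *DIN11*, another dark-inducible gene, was listed at 0 in every S3_S library, against 1.36, 2.45 and 4.33 FPKM in S1 (adjusted p = 0.0259, limma). *WRKY53*, a senescence regulator, had 1.04, 1.11 and 1.14 FPKM in S3_S, against 0.0976, 0.115 and 0.10 FPKM in S1, a separation under the fold limit on this scale (0.92 ± 0.11, adjusted p = 0.0198, limma). *ACD1*, the pheophorbide a oxygenase of chlorophyll breakdown, did not pass the test (0.98 ± 0.31, adjusted p = 0.0784, limma).

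Hormone signaling genes were mostly higher where called. Of 289 tested members of the KEGG pathway (304 in the table), 36 were higher and 8 lower (24 and 8 after scaling), with leave-one-out ranges of 40 to 59 higher and 8 to 18 lower. The median was 0.18, beside 0.06 over all genes tested, and 0.55 among expressed members, beside 0.29 over expressed genes. The share called higher was 12.5%, beside 8.19% of all genes tested. Of the 182 expressed members 35 were called higher, beside 13.8% of expressed genes. In S3_C, 77 of 273 tested members were higher and 5 lower than in the same S1 libraries. Of all genes, 15.5% were higher and 2.94% lower in S3_C. Directly, 13 of 277 members were lower in S3_S than in S3_C and 0 higher (2 higher under the unadjusted rule). The direct comparison called 1.39% of all genes lower. *Bo3g054410*, described as PYR1-like 7, an abscisic acid receptor, had 36.3, 35.4 and 104 FPKM in S3_S, against 5.22, 1.40 and 1.85 FPKM in S1 (3.90 ± 0.54, adjusted p = 0.0209, limma). *Bo5g121480*, annotated as a JAZ repressor of jasmonate responses, had 6.5, 20.3 and 18.3 FPKM in S3_S, against 1.19, 0.791 and 0.286 FPKM in S1 (3.09 ± 0.46, adjusted p = 0.0222, limma). *IAA11*, an auxin response repressor, had 8.64, 11.6 and 13.8 FPKM in S3_S, against 2.26, 1.05 and 1.19 FPKM in S1 (2.31 ± 0.28, adjusted p = 0.0198, limma). All S3_S libraries exceeded all S1 libraries in these 3 genes.

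Genes of signaling by cytokinin, a hormone that sustains cell division, were called in both directions. Of 35 tested members of its KEGG steps, grouped after their values were seen, 5 were higher and 6 lower (3 and 6 after scaling, median 0.01). Of all genes tested, 8.19% were called higher and 3.38% lower, and of expressed genes 13.8% and 5.70%. The count of higher calls is near the share of expressed genes and is not read as a result about these members. Of 15 type-A response regulators, which dampen the signal, 5 were lower and 1 higher. *Bo5g027070*, annotated as a type-A response regulator, had 3.36, 3.30 and 3.69 FPKM in S3_S, against 15.2, 25.6 and 17.6 FPKM in S1 (−2.17 ± 0.23, adjusted p = 0.0180, limma). *WOL*, a cytokinin receptor, had 1.92, 0.995 and 0.713 FPKM in S3_S, against 4.39, 10.8 and 7.59 FPKM in S1 (−1.92 ± 0.38, adjusted p = 0.0299, limma). The type-A regulator that rose was *ARR16* (1.34, adjusted p = 0.0217, limma), and *AHP4*, of the phosphotransfer proteins between receptors and regulators, also rose (2.18, adjusted p = 0.0391, limma). Enzymes that break down abscisic acid were called in both directions. *Bo2g127090*, annotated as an abscisic acid 8'-hydroxylase, had 20.1, 15.6 and 7.23 FPKM in S3_S, against 0.409, 0.0592 and 0.271 FPKM in S1 (3.52 ± 0.39, adjusted p = 0.0191, limma), whereas *Bo4g065810* of the same annotation fell by 2.22 ± 0.34 (adjusted p = 0.0222, limma).

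Genes of auxin-activated signaling were called higher 7 times of 89 and lower 0 times (5 and 0 after scaling, leave-one-out ranges 8 to 15 higher and 0 to 6 lower). The share called higher, 7.87%, was near the 8.19% of all genes tested. Of the 60 expressed members 7 were called higher, beside 13.8% of expressed genes. The count is not read as a result about the list. In S3_C, 40 of 88 tested members were higher than in the same S1 libraries, beside 15.5% of all genes. Directly, 14 of 86 were lower in S3_S than in S3_C and 0 higher (30 and 0 under the unadjusted rule). The direct comparison called 1.39% of all genes lower.

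In the lists of wounding and pathogen responses, higher calls outnumbered lower ones. Of 40 tested genes of the response to wounding, 11 were higher and 1 lower (6 and 2 after scaling), and 11 to 13 were higher under the unadjusted rule with 1 library left out. In plant-pathogen interaction, 23 of 150 tested genes were higher and 3 lower (20 and 3 after scaling, leave-one-out ranges 24 to 32 higher and 3 to 5 lower). The shares called higher were 27.5% for wounding and 15.3% for plant-pathogen interaction, beside 8.19% of all genes tested. Of expressed members, 11 of 28 were higher for wounding and 21 of 97 for plant-pathogen interaction, beside 13.8% of expressed genes. *ATMPK3*, a kinase of stress and immune signaling, had 31.6, 40.4 and 27.7 FPKM in S3_S, against 6.99, 5.73 and 3.26 FPKM in S1 (2.47 ± 0.29, adjusted p = 0.0191, limma). *ATCK1*, choline kinase 1, had 32.0, 16.8 and 22 FPKM in S3_S, against 0.721, 0.282 and 0.0916 FPKM in S1 (4.15 ± 0.31, adjusted p = 0.0168, limma). *Bo4g187630*, annotated as *WRKY33*, a regulator of defense against fungi, had 12.2, 13.1 and 13.6 FPKM in S3_S, against 1.32, 0.523 and 0.191 FPKM in S1 (3.11 ± 0.29, adjusted p = 0.0176, limma). In each of the 3 genes every S3_S library was above every S1 library, as in 25.9% of all genes tested.

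*CEN2*, the calcium-binding protein centrin 2, had the largest change among the genes called in the plant-pathogen list, with 9.61, 33.3 and 46.5 FPKM in S3_S, against 0.0569, 0 and 0.0528 FPKM in S1 (4.64 ± 0.56, adjusted p = 0.0198, limma). *ACS6*, which makes the precursor of ethylene, had 45.6, 10.7 and 5.62 FPKM in S3_S, against 0.330, 0.625 and 1.41 FPKM in S1. Its call was lost after scaling and without the intensity trend (3.15 ± 0.72, adjusted p = 0.0401, limma). Of the alpha-linolenic acid pathway, the source of jasmonate, 7 of 39 tested genes were higher and 1 lower (4 and 2 after scaling, leave-one-out ranges 5 to 9 and 1 to 3). That is 17.9% and 2.56%, beside 8.19% and 3.38% of all genes tested. The lower one was the lipoxygenase *Bo2g050630* (−1.88 ± 0.42, adjusted p = 0.0385, limma), and a higher one was *ACX3*, an acyl-CoA oxidase of peroxisomes (1.69 ± 0.32, adjusted p = 0.0278, limma).

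Cell wall genes were called in both directions, with 11 of 174 tested genes of cell wall organization higher and 12 lower (9 and 17 after scaling, leave-one-out ranges 14 to 22 and 13 to 23). That is 6.32% and 6.90%, beside 8.19% and 3.38% of all genes tested. Of 105 expressed members 11 were higher and 11 lower, beside 13.8% and 5.70% of expressed genes. *Bo2g030310*, a xyloglucan endotransglucosylase/hydrolase, which cuts and rejoins wall polymers, had 32.5, 52.3 and 20.7 FPKM in S3_S, against 0.282, 0.0647 and 0.0714 FPKM in S1 (4.90 ± 0.35, adjusted p = 0.0167, limma). *Bo4g031120* of the same family had 1.64, 0.322 and 0.226 FPKM in S3_S, against 8.72, 11.5 and 9.67 FPKM in S1 (−2.75 ± 0.35, adjusted p = 0.0198, limma). The groups did not overlap in either gene. The pectin acetylesterase *Bo1g021480* had 39.9, 132 and 166 FPKM in S3_S, against 5.66, 4.56 and 2.78 FPKM in S1 (4.22 ± 0.56, adjusted p = 0.0203, limma). *Bo5g012160*, annotated with polygalacturonase activity, which cleaves pectin, had 0.663, 0.0308 and 0.0289 FPKM in S3_S, against 17.3, 31.2 and 24.7 FPKM in S1 (−4.36 ± 0.32, adjusted p = 0.0167, limma).

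Light and clock genes were called in both directions. Of 40 genes of the KEGG circadian rhythm pathway, 5 were higher and 3 lower (3 and 3 after scaling, leave-one-out ranges 5 to 9 and 3 to 4). That is 12.5% and 7.50%, beside 8.19% and 3.38% of all genes tested. Of 31 expressed members 5 were higher and 3 lower, beside 13.8% and 5.70% of expressed genes. *CRY1*, a blue light receptor, had 55.2, 66.9 and 79.2 FPKM in S3_S, against 19.6, 11.9 and 12.2 FPKM in S1 (2.15 ± 0.26, adjusted p = 0.0198, limma). *Bo8g002920*, annotated as *CRY2*, rose by 1.59 ± 0.22 (adjusted p = 0.0207, limma). *Bo9g171430*, annotated as *HY5*, which promotes light responses downstream of these receptors, had 5.37, 6.19 and 5.32 FPKM in S3_S, against 18, 16.8 and 21.1 FPKM in S1 (−1.56 ± 0.17, adjusted p = 0.0180, limma). The receptors and *HY5* thus differed in direction, each with separated groups.

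In the list of clock genes, with 10 of 32 found, 1 was higher and 1 lower. Summed over the list, the FPKM were 262, 1189 and 1105 in S3_S, against 623, 488 and 366 in S1. The groups overlapped, and the first S3_S library lay far below libraries 2 and 3 of S3_S. *Bo5g002760*, the morning gene *LHY*, had 3.98, 6.09 and 2.06 FPKM in S3_S, against 0.305, 0.151 and 0.0975 FPKM in S1 (2.01 ± 0.36, adjusted p = 0.0261, limma). The RNA-binding gene described as *GRP8*, 1 of 4 loci that the table names *CCR1*, had 43.2, 33.3 and 31.3 FPKM in S3_S, against 98.9, 115 and 94.7 FPKM in S1 (−1.5 ± 0.22, adjusted p = 0.0213, limma). *GI* and *Bo7g096790* (*PRR5*), expressed in the afternoon and evening in *Arabidopsis*, were at 0.26 and −0.39 and did not pass the test. The time of day of sampling is not given in the sources used here.

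Cold genes were called in both directions. Of 54 tested genes of the response to cold, 6 were higher and 5 lower (4 and 6 after scaling, leave-one-out ranges 6 to 11 and 6 to 8). That is 11.1% and 9.26%, beside 8.19% and 3.38% of all genes tested. Of 41 expressed members 6 were higher and 5 lower, beside 13.8% and 5.70% of expressed genes. Of 5 genes of cold acclimation and 3 genes of the cold regulon found among 34 listed, limma called 0, with 0 and 1 of them past the unadjusted rule. *COR78*, a classical cold and drought marker also known as *RD29A*, had 781, 514 and 388 FPKM in S3_S, against 1152, 697 and 237 FPKM in S1 (−0.10 ± 0.90, adjusted p = 0.946, limma). *Bo5g059700* (*COR413IM2*), a chloroplast membrane protein, had 252, 358 and 484 FPKM in S3_S, against 232, 96.0 and 51.8 FPKM in S1. Its groups did not overlap, but its lowest S3_S value was close to the first S1 library and it did not pass the test (1.74 ± 0.63, adjusted p = 0.107, limma). *Bo3g035640* (*ERD15*), a dehydration-responsive gene, had 397, 384 and 519 FPKM in S3_S, against 174, 108 and 76.2 FPKM in S1 (1.92 ± 0.45, adjusted p = 0.0422, limma), a call that was lost after scaling. Of 5 flowering and vernalization genes found, 0 passed either rule.

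Of the 3 genes of the interval mapped for the variegation locus, limma called 0, and 1, *Bo3g002070*, passed the unadjusted rule. *Bo3g002080*, annotated to the mediator complex, had 0.612, 0.696 and 0.393 FPKM in S3_S, against 0.0399, 0.0611 and 0.0741 FPKM in S1. The groups were separated at low levels, and the difference of 0.56 ± 0.10 was under the fold limit (adjusted p = 0.0246, limma). *Bo3g002070*, described as REVEILLE 4, a clock-related transcription factor, had 13.8, 11.3 and 8.32 FPKM in S3_S, against 6.81, 3.60 and 3.34 FPKM in S1 (1.15 ± 0.31, adjusted p = 0.0541, limma). *Bo3g002090* did not differ beyond the spread of its libraries (−0.16 ± 0.30).

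Among genes whose libraries did not overlap and whose higher group averaged at least 5 FPKM, the largest rise was at MSTRG.9730, an assembled locus without a gene name. It had 94.3, 414 and 258 FPKM in S3_S, against 2.39, 0.0555 and 0.202 FPKM in S1 (7.06 ± 0.67, adjusted p = 0.0176, limma). *Bo3g027470*, with no description in the table, had 2996, 4988 and 5092 FPKM in S3_S, against 353, 29.7 and 14.6 FPKM in S1 (6.26 ± 1.27, adjusted p = 0.0317, limma), which placed it among the most abundant transcripts of the margin. The first S1 library was the highest of its group. *Bo3g019600*, described as a beta-galactosidase, an enzyme that trims wall sugars, had 14.7, 183 and 560.4 FPKM in S3_S, against 1.14, 0.0435 and 0.0528 FPKM in S1 (6.47 ± 1.26, adjusted p = 0.0298, limma).

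The largest falls included *Bo9g058450*, a histone H3, which was listed at 0 in every S3_S library, against 20.9, 125 and 131 FPKM in S1 (adjusted p = 0.0191, limma). *Bo2g025290*, a histone H2A, had 27.0, 1.5 and 7.08 FPKM in S3_S, against 103, 305 and 508 FPKM in S1 (−4.93 ± 0.99, adjusted p = 0.0309, limma). *Bo8g030940*, a GDSL lipase annotated to cuticle development, had 0.368, 0 and 0 FPKM in S3_S, against 29.5, 81.9 and 70.3 FPKM in S1 (−5.67 ± 0.41, adjusted p = 0.0167, limma). The histone genes followed the replication genes, with the highest S1 values in libraries 2 and 3. *Bo6g087680* (MSTRG.21988), a phosphoethanolamine N-methyltransferase, which makes the precursor of phosphatidylcholine, had 13.4, 0.894 and 1.05 FPKM in S3_S, against 448, 23.9 and 281 FPKM in S1 (−5.26 ± 1.3, adjusted p = 0.0464, limma). S1 itself ranged widely in this gene, and its call was lost without the intensity trend.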

How the data were processed

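RNA of 12 leaf samples was measured by Illumina sequencing of poly(A) libraries. The authors aligned the reads with HISAT to the *B. oleracea* assembly in release 38 of Ensembl Plants (HISAT2 2.0 in the submitters' processing notes), assembled transcripts with StringTie 1.3.0, merged the assemblies and deposited FPKM per gene, with no scaling between libraries named. Read counts were not analysed here. Relative depth was read from values under 0.1 FPKM. Groups were taken from the labels. The main test was limma 3.58.1 in R 4.3.3 (lmFit, eBayes with trend) on log2(FPKM + 1), with thresholds of 0.05 on the Benjamini-Hochberg adjusted p and 1 on the log2 fold change. The fit was tested on simulated data. An exact permutation test cannot go below p = 0.1 with 3 libraries against 3. Summaries used Python 3.11.15, numpy 2.4.6 and pandas 2.3.3.

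Alternatives were a pseudocount of 0.1, genes averaging at least 1 FPKM, scaling by median of ratios or by quantiles, the replicate block, all 12 libraries, linear models with and without a library-size covariate, and each library left out. Leaving out both first libraries and fitting without the trend were added after values were seen. The members and lists were chosen with earlier results of these data known. The genes named were the 12 largest called changes in each direction without overlap of the groups and with at least 5 FPKM in the higher group, up to 4 called members in each direction and the 3 most abundant members of each list, the called cold and clock genes and the 3 genes of the mapped interval. *PHV* and members of lists matched to *Arabidopsis* genes outside this rule were named after their values were seen. Lists came from the KEGG and GO columns of the table, which annotate 4581 and 22656 genes, or from *Arabidopsis* genes in its descriptions, which name such a gene in 7867 rows, so these lists are incomplete. No epidermis marker was found. Promoter and protein sequences were not used here.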

Additional observations from a re-analysis of the deposited data

How the results depend on the processing

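The count of 4904 called genes (3473 higher, 1431 lower in S3_S) became 7562 with a pseudocount of 0.1 (2426 lower), 163 (140 higher, 23 lower) in a linear model without covariate, 0 (0 and 0) in one with the library-size covariate of Ballgown and 8136 under the unadjusted rule. A limit of 1 FPKM on the mean gave 2367 lower. Median-of-ratios scaling gave 2257 higher and 2270 lower, and quantile normalization 2212 and 2227. With libraries left out the counts were 0 to 8504 called, 0 to 5191 higher and 0 to 3313 lower. The 8504 came without both first libraries. The count under the unadjusted rule was 12761 with a pseudocount of 0.1 and 910 with the covariate. With all 12 libraries in the fit or without the intensity trend, the counts stayed within 1.5 times. The replicate block called 0 genes (0 higher, 0 lower; smallest adjusted p 0.0994), with 7600 under the unadjusted rule. Libraries of the same number correlated at −0.166, 0.0208 and −0.175 in their deviations from the group means. Such deviations sum to 0 within a group by construction. Whether libraries of the same number share a batch was not tested.

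Of the 408 genes named or held in the lists, 2 reversed, both in the model with the covariate: Bo6g087680 (MSTRG.21988) to 0.28 and Bo2g046140 (MSTRG.4660) to −0.0751. The cause was not tested. Without the trend 7 of the 408 passed the test only then and 29 no longer did. FPKM carry no counts, so counting error at low values is unknown, and abundant genes are limited by the variance trend.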

Other observations

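Further lists were chosen after the values had been seen, so their counts are descriptions. Of all genes tested, 8.19% were called higher and 3.38% lower, and of expressed genes 13.8% and 5.70% (9.04% and 9.02% after scaling). The shares called higher below were 33.3% for autophagy, 50% for beta-oxidation and 26.7% for SNARE genes. Autophagy genes, which deliver cell contents to the vacuole for breakdown, had 12 of 36 tested members higher in S3_S and 0 lower (6 and 0 after scaling). They summed to 430.1, 571 and 698 FPKM in S3_S, 597, 445 and 774 in S3_C and 253, 172 and 112 in S1. *Bo7g104500*, described as an autophagy-related protein, had 47.7, 71.7 and 97.4 FPKM in S3_S, against 14.8, 0.928 and 0.960 FPKM in S1 (log2 fold change 4.17 ± 0.85, adjusted p = 0.0323, limma). The groups were separated, with the first S1 library nearest to S3_S. Fatty acid beta-oxidation, which breaks down fatty acids in peroxisomes, had 6 of 12 tested members higher and 0 lower (4 and 0 after scaling). Its citrate synthase *CSY3* had 14.8, 32.9 and 58.1 FPKM in S3_S, against 5.59, 2.98 and 0.995 FPKM in S1 (3.08 ± 0.61, adjusted p = 0.0308, limma). SNARE genes, which fuse vesicles with their targets, had 12 of 45 higher and 0 lower (9 and 1 after scaling), such as *SYP23* with 27.2, 40.6 and 37.4 FPKM in S3_S, against 7.11, 8.24 and 6.34 FPKM in S1 (2.12 ± 0.21, adjusted p = 0.0176, limma).

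Synthesis of fatty acids was called mostly the other way, with 10 of 40 genes lower and 2 higher. *MOD1*, the enoyl reductase of plastid fatty acid synthesis, had 23.5, 13.3 and 12.8 FPKM in S3_S, against 38.6, 96.2 and 102 FPKM in S1 (−2.12 ± 0.44, adjusted p = 0.0336, limma). Of 56 aminoacyl-tRNA synthesis genes, which charge tRNA for translation, 10 were lower and 0 higher (23 and 0 after scaling). Of 16 genes of DNA replication initiation 10 were lower and 0 higher, and of 18 genes described as histones 4 were lower and 0 higher. The shares called lower were 25% for fatty acid synthesis, 17.9% for aminoacyl-tRNA synthesis, 62.5% for replication initiation and 22.2% for histones, beside 3.38% of all genes tested. The share of called genes that carry no name in the table, only an assembled locus, was 935 of 4904.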
